A study of Homo sapiens with 4 samples.

Results

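The 9 genes described here encode surface molecules by which B-cell precursors are recognised: CD22, CD72, MS4A1, CD38, MME, CD34, CD9, IL7R and CXCR4. They were taken by name, and every probe whose RefSeq accession belonged to 1 of them was kept, which gave 11 probes for 9 of the 18203 genes that could be named on the array. CD34 and MME had 2 probes each and the other 7 genes had 1. As B cells mature in the bone marrow, their surface changes in steps. CD34 marks the earliest progenitors and is lost first, MME (the antigen CD10) marks precursors, and MS4A1 (the antigen CD20) comes up late. IL7R and CXCR4 receive survival and homing signals from the marrow stroma, while CD22 and CD72 dampen signalling from the receptor for antigen.

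RNA was measured in Nalm-6, a human pre-B leukemia cell line, on 1-colour microarrays with 1 array per genotype. The 4 genotypes were wild type (WT), Arp5 KO, Arp8 KO and a culture labelled Arp8 overexpression (Arp8 OE). Arp5 and Arp8 are actin-related proteins of INO80, a complex that remodels chromatin. In Arp5 KO both alleles had been disrupted by gene targeting in an established line, and Arp8 KO had been made earlier in a similar way. The paper states that conditional knockout of Arp8 was lethal to cells, whereas Arp5 KO cells grew slowly but survived. The heme given to induce oxidative stress was at 20 uM for 12 hours, and the titles of all 4 samples name it. Other labels, however, gave both knockouts, or Arp5 KO alone, as not treated, so genotype and heme treatment cannot be told apart in any comparison of a knockout with WT or Arp8 OE. With 1 array per genotype there was no biological replicate and no test. All values below are log2 of the processed signal over the 75th percentile of the same array, called the level, and a probe is compared only with itself.

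The arrays were alike in quality. Between 55.8% and 57.4% of the 41000 probes were well above background, no spot was saturated, and all 4 arrays lay on 1 slide. For probes printed several times, the spread of spots within an array gave a technical SD of a difference between single spots. It was 0.0699 at levels above 2, 0.0781 between 0 and 2, 0.0923 between -2 and 0, and 0.143 below -2. This SD includes neither the spread between arrays nor that between cultures. A difference above it is thus not shown to exceed either of these. ACTR5, which encodes Arp5, had levels of -0.13 in WT, -0.41 in Arp8 OE, -4.40 in Arp5 KO and -0.24 in Arp8 KO. The ACTR8 probes had levels of -1.02, -1.01, -1.11 and -1.55, and of 0.25, 0.23, 0.01 and -0.44, in the same order, so ACTR8 signal was lower but still present in Arp8 KO and was not raised on the array labelled Arp8 OE. For this reason Arp8 OE is used as a name only. HMOX1, the heme oxygenase gene that heme induces, had levels of -0.51 in WT, -2.56 in Arp8 OE, -3.48 in Arp5 KO and -3.42 in Arp8 KO. All 10 marker genes of pre-B cells, among them CD79A, PAX5 and RAG1, were well above background on every array, in accord with the label of the line.

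Among the 9 genes, CD22, CD38 and IL7R were more than 2-fold below WT in Arp8 KO, and CD9 was so in Arp5 KO. MME and CXCR4, at high signal, and CD72 differed from WT by at most 0.32 on the log2 scale on every array. MS4A1 and CD34 were at the edge of detection. No gene was over 2-fold higher in any genotype than in WT. In a culture measured in bulk, fewer cells carrying a transcript and less of it per cell cannot be told apart.

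The stretches before the start sites of the 3 genes that were lower in Arp8 KO are shown because these genes moved together on 1 array. Each holds the 250 bases upstream of the RefSeq start site (assembly GRCh38.p14, all on the plus strand), at chr19:35328937-35329186 for CD22, chr4:15778078-15778327 for CD38 and chr5:35856641-35856890 for IL7R. Capitals mark the motif matches described below.
CD22: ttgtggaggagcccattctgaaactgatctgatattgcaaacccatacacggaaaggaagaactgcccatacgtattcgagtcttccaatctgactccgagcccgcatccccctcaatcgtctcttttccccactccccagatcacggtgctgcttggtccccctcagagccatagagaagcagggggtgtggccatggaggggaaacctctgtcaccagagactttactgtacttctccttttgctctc
CD38: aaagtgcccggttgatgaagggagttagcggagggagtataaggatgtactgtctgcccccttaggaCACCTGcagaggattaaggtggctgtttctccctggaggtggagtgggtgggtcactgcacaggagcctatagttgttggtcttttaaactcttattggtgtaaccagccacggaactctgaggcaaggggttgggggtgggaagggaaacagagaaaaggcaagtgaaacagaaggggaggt
IL7R: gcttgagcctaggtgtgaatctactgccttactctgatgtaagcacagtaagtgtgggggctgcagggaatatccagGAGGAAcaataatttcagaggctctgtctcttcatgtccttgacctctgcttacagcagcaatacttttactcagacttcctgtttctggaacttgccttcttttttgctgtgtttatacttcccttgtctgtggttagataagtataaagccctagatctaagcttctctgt

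Upstream of CD22 there were 7 CpG dinucleotides and a GC content of 52.8%, upstream of CD38 3 CpG and 52.4%, and upstream of IL7R no CpG and 43.6%. Across all 35116 RefSeq windows of this length the median was 11 CpG and 58.0% GC, so each of the 3 lay below the median in both. The windows were searched on both strands for 5 motifs. The E-box CAGGTG, of the type bound by E2A proteins, is held by 17.5% of all windows, the EBF1 core CCCNNGGG by 17.1%, the PU.1 core GAGGAA by 23.6%, the octamer ATGCAAAT by 1.63% and the antioxidant response element TGACNNNGC by 10.9%. No searched motif overlapped another in these windows. The CD38 window held 1 match, the E-box read as CACCTG, at -183 to -178 from the start site. In the IL7R window there was 1 GAGGAA, at -173 to -168, and the CD22 window held none of the 5. These matches describe letters in a window and are not evidence that a factor binds there.

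**Figure D1:**
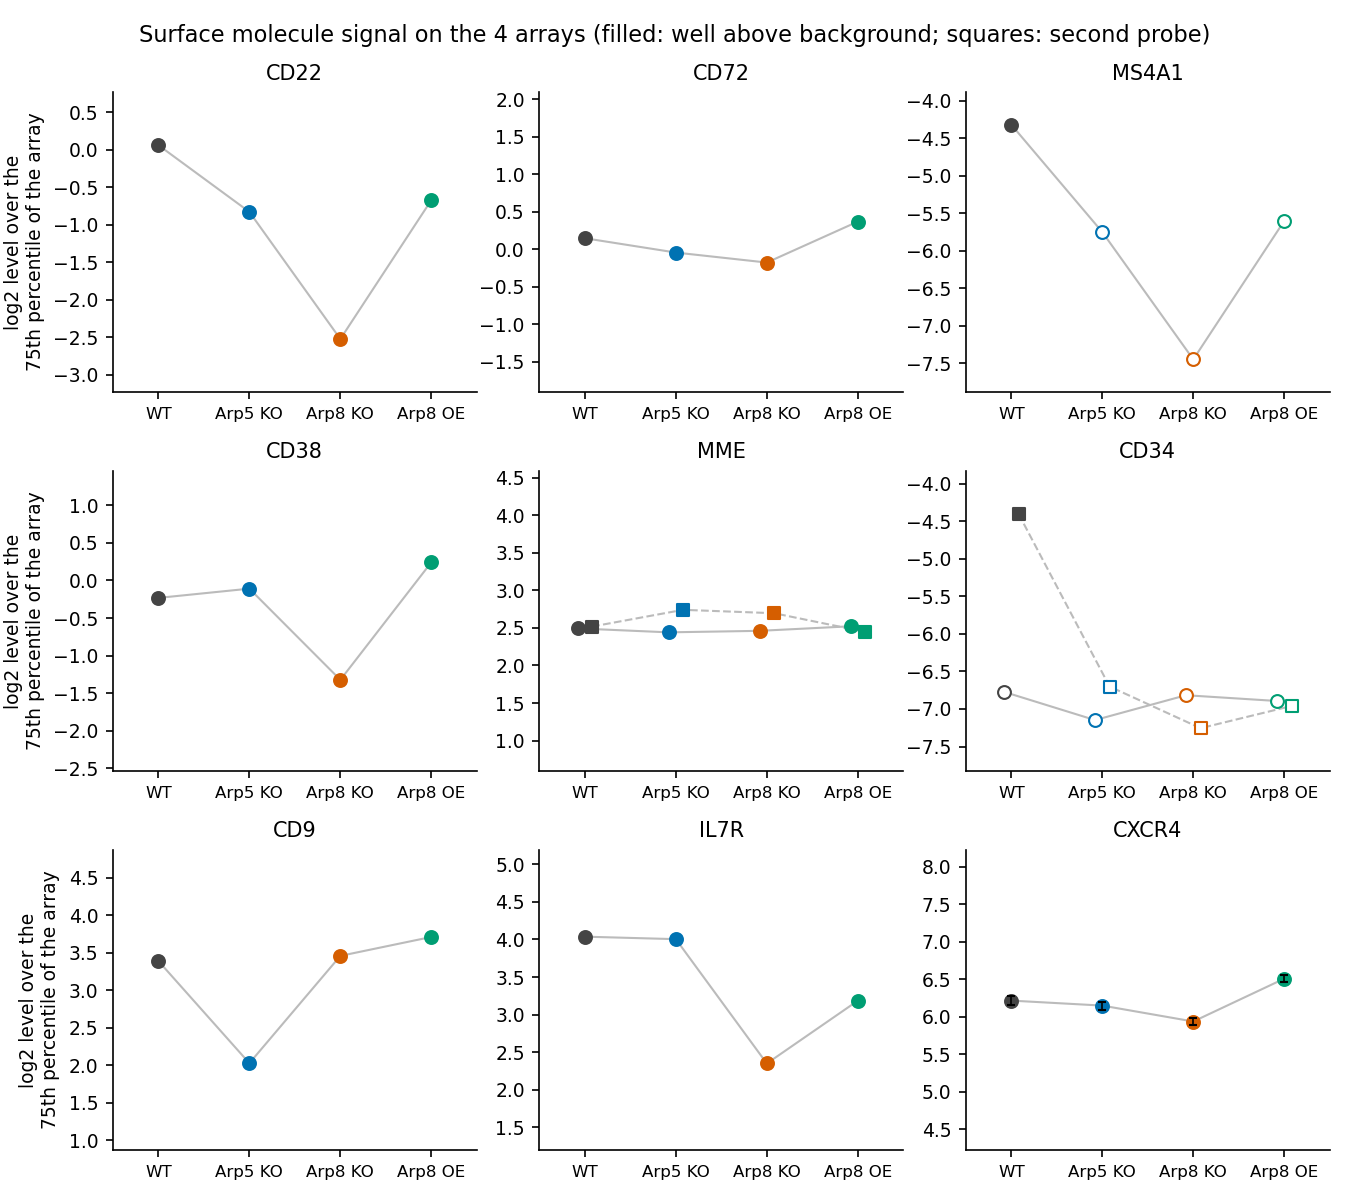
Level of each probe (log2 of the processed signal over the 75th percentile of the array, vertical axis) on each of the 4 arrays (horizontal axis), 1 panel per gene, each spanning the same number of log2 units. Filled points are well above background, squares are the second probe of CD34 and MME, lines only join points of 1 probe, and the error bars of CXCR4 are the SD over its spots. CD22 is at -2.52, CD38 to -1.32 and IL7R to 2.35 on the Arp8 KO array, and CD9 is at 2.03 on the Arp5 KO array.

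The inhibitory co-receptors of the B-cell receptor were considered first. CD22 is a lectin that binds sialic acid and recruits phosphatases when the receptor is engaged. Its level (probe A_23_P209055) was 0.06 in WT, -0.67 in Arp8 OE, -0.83 in Arp5 KO and -2.52 in Arp8 KO. WT was thus the highest and Arp8 KO by far the lowest, with the remaining arrays close together between them. Compared with WT, CD22 was 5.99-fold lower in Arp8 KO, a log2 difference of -2.58, and only 0.561% of the 24578 probes tested were lower still. In Arp5 KO the difference was -0.89, or 1.85-fold, and in Arp8 OE it was -0.73, or 1.66-fold. Both were larger than the technical SD and neither passed 2-fold. Directly compared, Arp8 KO was lower than Arp5 KO by a log2 difference of -1.69 and lower than Arp8 OE by -1.85, whereas Arp5 KO and Arp8 OE were 0.16 apart.

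CD72 is another inhibitory co-receptor, with CD100 (SEMA4D) as a ligand. Its level (A_23_P250245) was 0.15 in WT, 0.37 in Arp8 OE, -0.05 in Arp5 KO and -0.18 in Arp8 KO. Arp8 OE was the highest array and Arp8 KO the lowest, and the whole range was 0.55. The differences from WT were 0.22 in Arp8 OE, -0.19 in Arp5 KO and -0.32 in Arp8 KO, all above the technical SD and below 2-fold.

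MS4A1 forms the CD20 tetraspan, the target of therapeutic antibodies on mature B cells. Its probe (A_23_P116371) was well above background on WT alone, at a level of -4.32. On the other arrays it was not well above background, and read -5.60 in Arp8 OE, -5.75 in Arp5 KO and -7.45 in Arp8 KO. These values have no order among themselves. Only bounds can be given: compared with WT, MS4A1 was at least 1.41-fold lower in Arp8 OE, at least 1.67-fold in Arp5 KO and at least 1.80-fold in Arp8 KO. Its signal in WT itself was dim. Under another background correction, normexp, the differences were smaller in size, at -0.30, -0.35 and -0.53 (log2) in the same order. The bounds thus hold for the main processing only.

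Next, the enzymes of the cell surface were examined. CD38 makes and degrades cyclic ADP-ribose from NAD and is carried by B-cell precursors and plasma cells. Its level (A_23_P167328) was -0.23 in WT, 0.24 in Arp8 OE, -0.11 in Arp5 KO and -1.32 in Arp8 KO. Arp8 KO stood below the other arrays, which spanned 0.47. Compared with WT, CD38 was 2.13-fold lower in Arp8 KO, at a log2 difference of -1.09, close to the 2-fold threshold. Background correction by normexp brought it to -0.86, short of 2-fold. Against the other references the difference was larger, -1.22 from Arp5 KO and -1.57 from Arp8 OE. In Arp5 KO and Arp8 OE the differences from WT were 0.12 and 0.47.

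MME is the neutral endopeptidase CD10, the common acute lymphoblastic leukemia antigen. Its first probe (A_23_P212061) had levels of 2.49 in WT, 2.52 in Arp8 OE, 2.44 in Arp5 KO and 2.46 in Arp8 KO, so no neighbours in the order were further apart than the technical SD. Its second probe (A_24_P260101) read 2.52, 2.45, 2.74 and 2.70 in the same order, with both knockouts above WT and Arp8 OE. The probes disagreed in sign in the knockouts. The differences from WT were -0.05 and 0.22 in Arp5 KO, and -0.03 and 0.18 in Arp8 KO. No single direction can be given for MME, and on neither probe did any array differ from WT by more than 0.22.

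CD34 is a sialomucin of haematopoietic stem and progenitor cells. Its first probe (A_23_P23829) was well above background on no array and was not tested. The second probe (A_32_P220798) was well above background on WT alone, at -4.40, and read -6.96 in Arp8 OE, -6.70 in Arp5 KO and -7.26 in Arp8 KO. In the same order of these arrays, the bounds were at least 1.33-fold, at least 1.58-fold and at least 1.70-fold lower than WT. They too hold for the main processing only, since normexp gave log2 differences of -0.26, -0.31 and -0.35, smaller in size. Of the 2 probes, then, only the second was well above background in WT.

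CD9 is a tetraspanin that associates with integrins and other surface proteins and is found on B-cell precursors. Its level (A_23_P76364) was 3.39 in WT, 3.71 in Arp8 OE, 2.03 in Arp5 KO and 3.46 in Arp8 KO. Here Arp5 KO stood apart as the lowest array, while WT and Arp8 KO, neighbours in the order, differed by 0.07, no more than the technical SD. CD9 in Arp5 KO was 2.57-fold below WT, at a log2 difference of -1.36, and 1.28% of the 24285 probes tested were lower. It was 3.21-fold lower than in Arp8 OE, and it was 2.69-fold higher in Arp8 KO than in Arp5 KO. In Arp8 OE it was above WT by 0.32.

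The receptors for marrow signals were examined last. IL7R is the alpha chain of the receptor for interleukin-7, a cytokine that sustains lymphocyte precursors. Its level (A_23_P404494) was 4.04 in WT, 3.18 in Arp8 OE, 4.004 in Arp5 KO and 2.35 in Arp8 KO. WT and Arp5 KO were 0.03 apart, within the technical SD, Arp8 OE lay below them and Arp8 KO was lowest. IL7R in Arp8 KO was 3.23-fold below WT, at a log2 difference of -1.69, and 1.60% of the probes tested were lower. It was 3.15-fold lower in Arp8 KO than in Arp5 KO, which does not rest on the WT array but does rest on the same Arp8 KO array. Between Arp8 KO and Arp8 OE the difference was -0.84, short of 2-fold, because Arp8 OE was itself lower than WT by a log2 difference of -0.85.

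CXCR4, the receptor for the chemokine CXCL12 that holds B-cell precursors in the marrow, was printed at 10 positions (A_23_P102000). Its mean level was 6.22 ± 0.06 in WT, 6.51 ± 0.04 in Arp8 OE, 6.15 ± 0.05 in Arp5 KO and 5.94 ± 0.04 in Arp8 KO (SD, n = 10 spots of 1 array). Arp8 OE was the highest and Arp8 KO the lowest, and WT and Arp5 KO differed by 0.07. The technical SD is that of single spots, so it is too wide for these means of 10 spots and is not used here. The differences from WT were 0.29 in Arp8 OE, -0.07 in Arp5 KO and -0.28 in Arp8 KO, all under 2-fold. Of the 57 spots adjacent to CXCR4 spots, 3 were over 2-fold brighter on 1 array than on each of the others, called bright spots from here on. No spot adjacent to any other probe of the 9 genes was bright in this way.

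**Figure D2:**
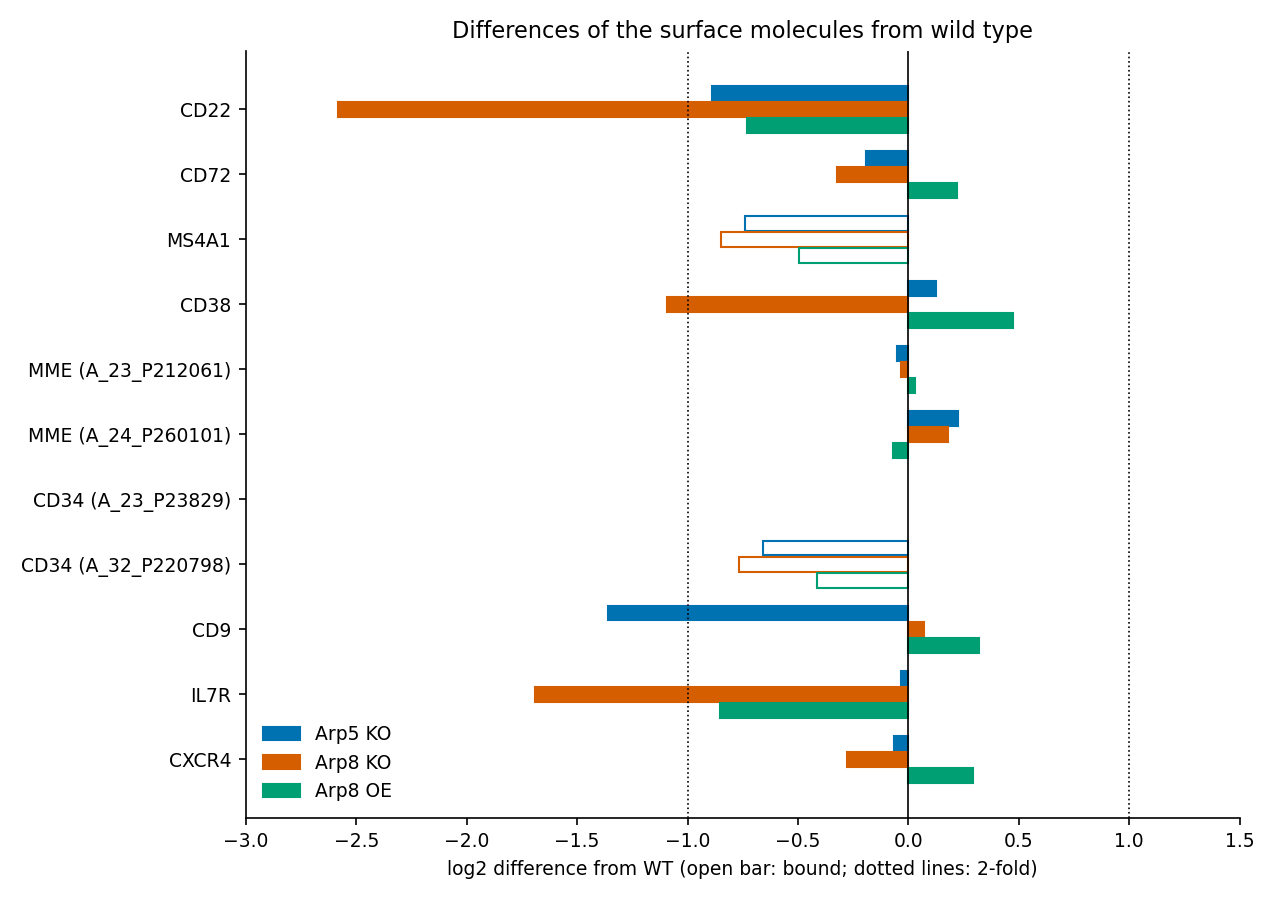
Log2 difference from WT (horizontal axis, log2 units) of each probe of the 9 genes (rows), with 1 bar each for Arp5 KO, Arp8 KO and Arp8 OE. Open bars are bounds, dotted lines mark 2-fold, and the first CD34 probe has no bar because it was not tested. CD22 (-2.58), IL7R (-1.69) and CD38 (-1.09) lie past the line in Arp8 KO and CD9 (-1.36) in Arp5 KO, while MME, CD72 and CXCR4 lie between -0.32 and 0.29.

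Counted over probes, 10 of the 11 were tested in each comparison with WT, and 8 were well above background on both arrays compared. The MS4A1 probe and the second CD34 probe were tested only because they were above background on WT, so they could only be lower. Their WT levels lay less than 2-fold above the lowest level counted as above background on each other array. In the main processing neither could thus pass 2-fold, and the counts below rest on the other 8 probes. In Arp5 KO 1 of the 10 tested was over 2-fold lower than in WT, where 2.01% of all probes tested were. In Arp8 KO this held for 3 of 10, against 4.35% of all probes tested, and in Arp8 OE for none, against 2.15%. None of the 10 was over 2-fold higher, against 2.96% in Arp8 OE, 1.69% in Arp5 KO and 3.37% in Arp8 KO. Over the 8 probes well above background on both arrays, the median log2 difference was 0.12 in Arp8 OE, -0.06 in Arp5 KO and -0.30 in Arp8 KO, beside 0.01, 0.00 and 0.03 over all probes measured in this way. With the bounds of MS4A1 and CD34 included it was -0.02, -0.13 and -0.54. The 3 comparisons share the WT array, so a high WT value lowers all of them.

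The knockouts were then compared with each other, without WT but on the same arrays, so a low value on 1 array recurs in each of its comparisons. Of the 8 probes tested, CD22, CD38 and IL7R were over 2-fold lower in Arp8 KO than in Arp5 KO, against 3.18% of all 24440 probes tested. CD9 was over 2-fold higher, against 2.53%. Set against Arp8 OE, CD22 and CD38 were over 2-fold lower in Arp8 KO, against 3.78% of all probes, and CD9 in Arp5 KO, against 3.28%. None was over 2-fold higher, against 1.64% in Arp8 KO and 2.08% in Arp5 KO. By 1 of the labels the knockouts differed from each other in heme treatment, so treatment cannot be told apart from genotype here either.

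**Figure D3:**
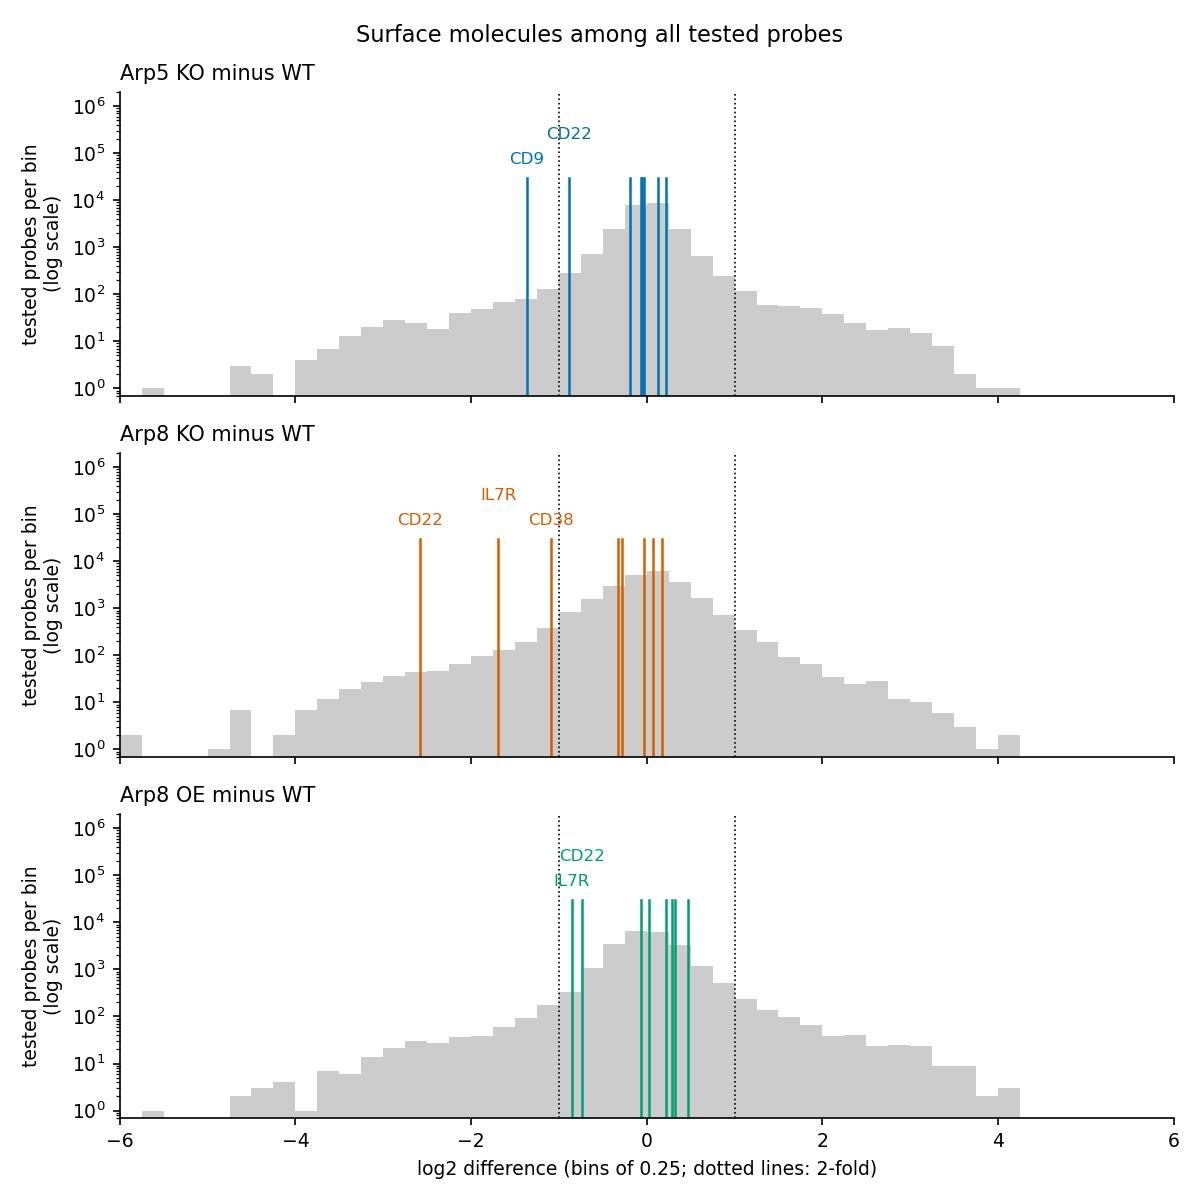
Number of probes (vertical axis, log scale) by log2 difference (horizontal axis) over all probes tested in each comparison with WT (grey), with a coloured line for each of the 8 probes of the 9 genes that were well above background on both arrays. The lines farthest from 0 are named and dotted lines mark 2-fold. In Arp8 KO minus WT, CD22 at -2.58 sits in the outer left tail, with IL7R (-1.69) and CD38 (-1.09) nearer the centre of it. In Arp5 KO minus WT, CD9 at -1.36 is the marked gene furthest to the left.

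For each of the 4 genes past 2-fold, the genes most like it were sought by Euclidean distance over the 3 log2 differences from WT. The search covered the 16576 probes with a gene name that were well above background on all arrays. A small distance means that a probe differed from WT by much the same amounts as the gene did, and nothing about function follows from it. For CD22, CMTM3 was nearest, at a distance of 0.03, with differences of -0.72 in Arp8 OE, -0.88 in Arp5 KO and -2.61 in Arp8 KO. CD96 came next, at 0.16. Around CD38 lay NFATC1, at 0.13, whose probe was beside a bright spot, and RIPOR2, also at 0.13. The nearest genes to CD9 were KCNG1 (0.19) and ATP6V0E2-AS1 (0.23), and to IL7R they were FTHL17 (0.21) and FAH (0.23).

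The partners of these molecules were examined as a list of 20 co-receptors, ligands and signalling proteins, of which CR2 had no probe by that name. No probe of 19 tested passed 2-fold in Arp5 KO, where 1.69% of all probes tested were higher and 2.01% lower. In Arp8 KO 1 of 20 was higher and 2 were lower, against 3.37% and 4.35%, and in Arp8 OE 2 of 19 were higher and 1 was lower, against 2.96% and 2.15%. The list medians in this order were 0.09, -0.06 and 0.05. The lower probe of Arp8 OE was IL2RG, as was 1 of the lower probes of Arp8 KO. IL2RG was tested there only because WT was above background, so it could only be lower. With bounds left out, Arp8 OE had 0 lower probes and Arp8 KO had 1. All higher values came from the 2 probes of STAT5A, 1 of them beside a bright spot. PTPN6, the phosphatase SHP-1 that CD22 and CD72 recruit, had levels of 2.51 in WT, 2.03 in Arp8 OE, 2.76 in Arp5 KO and 1.30 in Arp8 KO, with Arp8 KO the lowest array as for CD22. In Arp8 KO its log2 difference was -1.21 from WT and -1.46 from Arp5 KO. LYN, the kinase that phosphorylates CD22, differed from WT by -0.63 in Arp8 KO, short of 2-fold.

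On the side of interleukin-7, IL2RG, the common gamma chain that pairs with IL7R, was well above background in WT (-3.65) and Arp5 KO (-4.12) only. Set against WT, Arp8 OE gave a bound of -1.17 and Arp8 KO a bound of -1.52, and neither could have been higher. IL2RG was also lower in Arp5 KO, by -0.48 with both arrays well above background. IL7R differed from WT by -0.03 there, so the 2 chains did not follow the same pattern over the arrays. The kinases JAK1, with 2 probes, and JAK3, with 3 probes, differed from WT by at most 0.26 on every array. STAT5A, a transcription factor downstream of the receptor, had differences of 1.46 and 0.67 on its 2 probes in Arp8 KO and of 1.97 and 1.05 in Arp8 OE. The probe with the larger values lay beside a bright spot, and whether that spot contributes was not tested. STAT5B differed from WT by at most 0.21. The ligands IL7 and CXCL12 were well above background on no array.

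Of 18 other B-lineage surface antigens, CD24 had no probe by that name. In Arp8 KO 4 of 11 tested probes were over 2-fold lower and 1 was higher, against 4.35% and 3.37% of all probes tested. The lower ones were both probes of FCRLA and the bounds of CD180 and FCGR2B. The median was -0.56 over the 7 probes measured on both arrays and -0.85 with 4 bounds, which could only be lower. In Arp5 KO 1 of 13 was lower and 2 were higher, against 2.01% and 1.69%, and both higher values were bounds. In Arp8 OE none of 11 was lower and 1 was higher, against 2.15% and 2.96%. FCRLA, an Fc receptor-like protein of B cells, had levels on its first probe (A_23_P46039) of 2.24 in WT, 2.52 in Arp8 OE, 2.02 in Arp5 KO and 1.17 in Arp8 KO. Like CD38, it was lowest in Arp8 KO, with differences from WT of -1.06 and -1.17 on its 2 probes, the latter beside a bright spot. CD180, a Toll-like receptor relative, was lower by -1.25 in Arp5 KO and by a bound of -1.71 in Arp8 KO, from a dim level of -3.46 in WT. FCGR2B, the inhibitory Fc receptor, was lower in Arp8 KO by a bound of -1.07 on 1 probe. Its probes disagreed in Arp8 OE, where this probe was lower by a bound of -0.43 and the other, beside a bright spot, was higher by 1.29.

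The co-stimulatory molecule CD86 went the other way in Arp8 KO. Its level was -4.81 in WT, -4.69 in Arp8 OE, -4.55 in Arp5 KO and -2.06 in Arp8 KO, a difference of 2.75 in Arp8 KO, while the other CD86 probe was well above background on no array. FCRL1 and CD1D were higher in Arp5 KO by bounds of 1.92 and 1.90, each on 1 of 2 probes, and both of these probes lay beside bright spots. Of 20 precursor and adhesion antigens, the only probe past 2-fold against WT was 1 of the 2 for CD47, at 1.07 in Arp8 KO. It was 1 of 18 tested probes there and none was lower, against 3.37% higher and 4.35% lower of all probes tested. None of 19 passed 2-fold in Arp5 KO, against 1.69% and 2.01%, or in Arp8 OE, against 2.96% and 2.15%. The other CD47 probe gave -0.11 in Arp8 KO. It was bright, at 4.03 in WT, while the CD47 probe past 2-fold was dim, at -3.01 in WT. This list had medians of 0.19 in Arp8 OE, -0.10 in Arp5 KO and -0.07 in Arp8 KO.

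**Figure D4:**
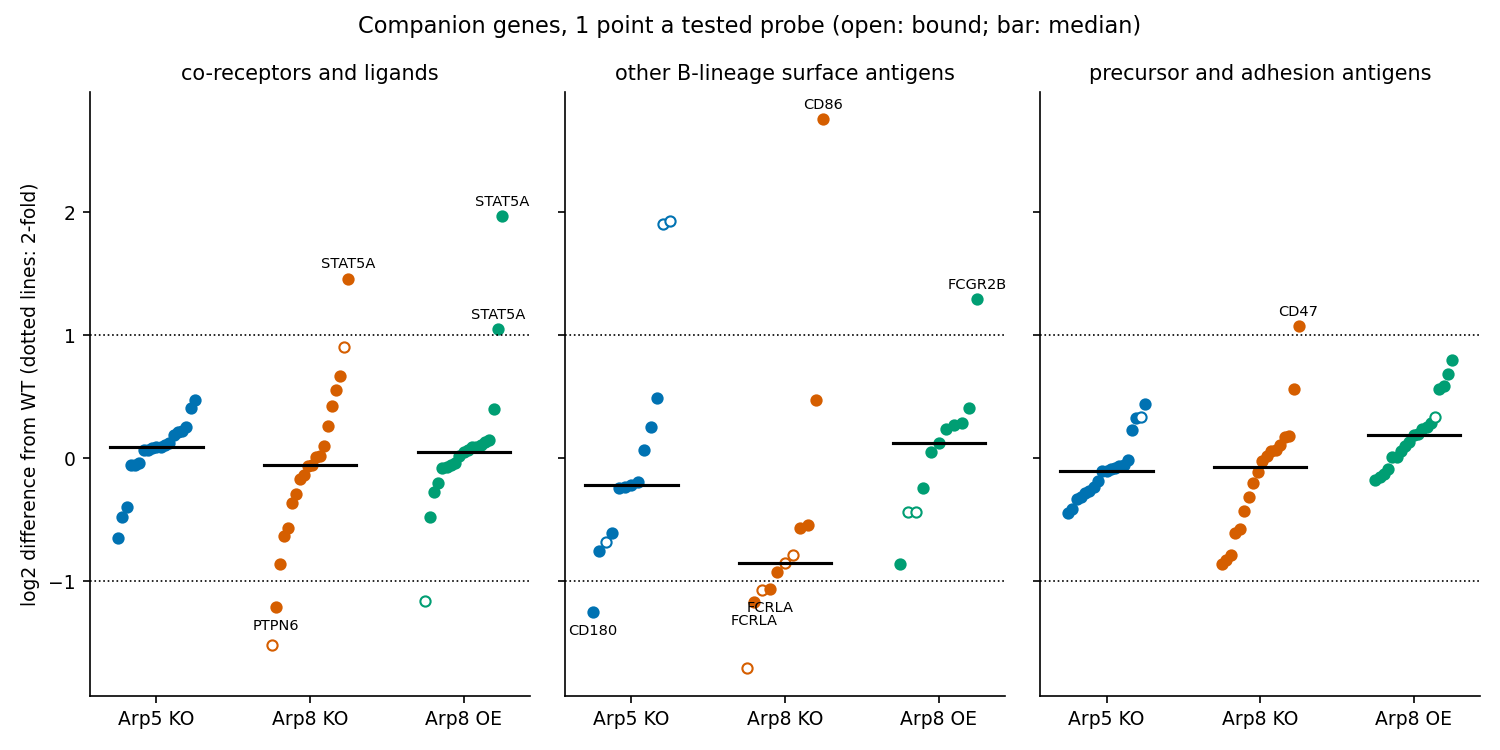
Log2 difference from WT (vertical axis) of every tested probe in the 3 lists of companion genes, 1 panel per list, with the genotypes side by side along the horizontal axis. Open points are bounds, black bars are list medians and dotted lines mark 2-fold. In Arp8 KO the other B-lineage surface antigens have a median of -0.85, itself a bound, with CD86 alone past 2-fold on the higher side, and the precursor and adhesion antigens lie within 2-fold except for CD47 at 1.07.

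Markers of other cell types were read beside these results. In the myeloid list 2 of 6 genes, CD14 and CD33, were well above background on all arrays, ITGAM and MPO were on none, and the summed level was 0.703 times the 75th percentile in WT, 0.950 in Arp8 OE, 0.824 in Arp5 KO and 2.88 in Arp8 KO. In Arp8 KO, CD33 was above WT by 2.39 and 2.37 (log2) on its 2 probes, the former beside a bright spot, while CD14 differed by 0.20, LYZ was higher by a bound of 0.89 and CSF1R was lower by a bound of -0.80. The part of these markers in the lower CD22, CD38 and IL7R was not tested. For plasma cells the summed level was 5.62, 7.34, 5.85 and 9.29 in the same order, with PRDM1 well above background on none. In Arp8 KO SDC1 was above WT by 0.75 and 0.80 on its 2 probes, while CD27 was lower by -0.93 and TNFRSF17 by a bound of -0.79. In the T-cell list CD2 and CD3D were well above background on no array, CD4 was on all, and the sum ranged from 3.13 to 5.05. CD8A was well above background on every array but Arp8 KO, at a dim level of -4.00 in WT. CD3E was well above background on Arp8 KO alone, at -4.85 on probe A_23_P416747. Sums were at most 0.454 for erythroid cells, NK cells and megakaryocytes, and HBB, ALAS2, NCAM1 and PF4 were not well above background. The pre-B sum was 334.3 in WT, 391.6 in Arp8 OE, 332.9 in Arp5 KO and 307.2 in Arp8 KO.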

How the data were processed

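RNA of 4 Nalm-6 cultures, grouped by the genotype that the labels give, was read on 4 Agilent arrays in 1 colour (Cy3). The authors deposited, per the file headers, spot intensity from Agilent Feature Extraction 10.10.1.1 (headers name hg19), with background subtracted and not normalized between arrays. The deposited series matrix holds the same intensity times 1 factor per array, found to be 2.01 for WT, 2.29 for Arp8 OE, 1.99 for Arp5 KO and 2.25 for Arp8 KO.

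Here log2 of the processed signal minus the array's 75th percentile over spots other than controls was used. Outlier spots (69 to 76 per array) were left out, and spots of a probe were averaged. A probe was tested if at least 50% of its spots were well above background on at least 1 array compared. Where it was so on 1 array only, the dim value was the higher of its own and the lowest level of any probe well above background on that array, and the difference is a bound. A bright spot was over 2-fold brighter on 1 array than on each of the others and within 20 pixels. Of 41000 probes, 27210 were named through RefSeq accessions (GRCh38.p14). Promoter windows existed in the table for 8 of the 9 genes; MS4A1 was not among them.

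No test was possible with 1 array per group, so differences past 2-fold were counted. The number of arrays limits precision. The scripts, in Python 3.11.15 with numpy 2.4.6 and pandas 2.3.3, were tested on simulated data. The genes, companion lists and markers of 7 cell types were chosen with earlier results of these data known. Named were all probes of the 9 genes, ACTR5, ACTR8 and HMOX1, at most 4 companion genes per list and comparison past 2-fold by size where both arrays were well above background, and the 2 genes most like each of the 9 that passed 2-fold. LYN, JAK1, JAK3, STAT5B, IL7 and CXCL12, bounds, second probes and single markers were added after their values were seen.

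Alternatives were median scaling, quantile normalization, normexp with an offset of 50 (limma 3.58.1, R 4.3.3, on the median spot signal), probes well above background on all arrays only, dropping both filter and floor, averaging a gene's probes, the series matrix, leaving out probes beside bright spots, and Arp8 OE as the reference. Medians over probes measured on both arrays were added after the data were seen.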

Additional observations from a re-analysis of the deposited data

How the results depend on the processing

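No paired analysis was possible because each genotype had 1 array, and for the same reason no array could be left out of a group. Of 68 recomputed counts of probes past 2-fold, 65 were within 1.5 times the reported count. The exceptions were the lower counts without a filter or floor, which were 2 in Arp8 OE, 3 in Arp5 KO and 5 in Arp8 KO, because the dim MS4A1 probe (-1.28, -1.43 and -3.13) and the second CD34 probe (-2.56, -2.30 and -2.85) then counted at their own values. Of the recomputed differences of single probes, 274 moved by less than the technical SD, 40 moved further, and no difference past 2-fold changed sign. Many of the 274 could not move. Settings that only leave probes out keep the values of the others, and the series matrix is the same signal times 1 factor per array. Averaging a gene's probes changed only MME. These settings also make up part of the recomputed counts, so neither tally measures robustness. Normexp brought CD38 in Arp8 KO to -0.86, short of 2-fold, and CD22 to -2.04. Over all probes it lowered the count over 2-fold lower in Arp8 KO from 1068 to 439. With Arp8 OE as the reference, IL7R in Arp8 KO was -0.84, short of 2-fold, and 0.82 in Arp5 KO, while CD22 in Arp5 KO was -0.16. Differences that had not passed 2-fold changed sign with this reference for IL7R (0.82) and CD38 (-0.35) in Arp5 KO and CD9 in Arp8 KO (-0.25). Differences of MME, at most 0.05 in size, changed sign under median scaling, normexp or the mean over its probes. The cause of these shifts was not tested. Signal over background limits MS4A1 and CD34, for which only bounds could be given. With normexp their differences from WT were smaller in size than these bounds on every array.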

Other observations

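Among the 10 marker genes of pre-B cells, DNTT, VPREB1 and RAG1 had a probe past 2-fold against WT, and they are named after their values were seen. In Arp8 KO 1 of 14 tested probes was higher and 1 was lower, against 3.37% and 4.35% of all probes tested. In Arp8 OE 2 of 14 were higher and none was lower, against 2.96% and 2.15%. In Arp5 KO none passed 2-fold, against 1.69% higher and 2.01% lower. DNTT, the polymerase that adds bases at V(D)J junctions, had levels of 2.35 in WT, 3.37 in Arp8 OE, 3.18 in Arp5 KO and 4.12 in Arp8 KO. WT was the lowest array, with differences of 1.02 in Arp8 OE, 0.84 in Arp5 KO and 1.78 in Arp8 KO. RAG1, a subunit of the V(D)J recombinase, was above WT on both of its probes, by 0.96 and 1.104 in Arp8 OE, 0.36 and 0.38 in Arp5 KO and 0.98 and 0.79 in Arp8 KO, with the former probe beside a bright spot. VPREB1, part of the surrogate light chain of the pre-B-cell receptor, had levels of 5.25 in WT, 5.25 in Arp8 OE, 4.83 in Arp5 KO and 3.99 in Arp8 KO. VPREB1 was lower in Arp8 KO by a difference of -1.26, as CD22, CD38 and IL7R were. IGLL1, its partner, stayed within 0.34 of WT on its 3 probes on every array.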
